A study of Mus musculus with 5 samples.

Results

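The genes described here are 32 genes of neutrophil granules, receptors and activation, chosen by symbol from a list of neutrophil genes and all found among the 21289 genes of the count table. RNA sequencing was done on leukocytes sorted from the infarcted hearts of wild-type male mice of the C57BL/6JGpt strain, 7 days after the infarct. The sort took cells positive for CD45, which marks leukocytes, and CD64, an Fc receptor found on monocytes and macrophages. For 3 samples, mice were gavaged with 30 mg/kg of the plant sesquiterpene curcumol daily for 7 days, and 2 samples came from mice with the same infarct and no curcumol. The labels give no age and do not say whether a sample is 1 animal or a pool. The series concerns STING signalling and type I interferon in macrophages, and the comparison asks what curcumol changed in the sorted cells.

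Neutrophils make their granules in waves as they mature in the bone marrow. Primary (azurophil) granules, with myeloperoxidase and serine proteases, form first, secondary (specific) granules with cathelicidin, lactoferrin and lipocalin form later, and gelatinase-rich tertiary granules form last. Receptors for chemokines, formyl peptides and leukotriene B4 appear towards maturity. In the infarcted heart neutrophils are early arrivals that precede the main wave of monocytes and macrophages. Several of these genes are also expressed by monocytes and macrophages, among them Clec4d, Trem1, Slpi, Fpr1, Fpr2 and, in inflammation, Lcn2.

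Library totals lay between 39768705 and 43315822 counts, so that 3 counts, taken as the floor for a gene without counts, equal 0.0693 and 0.0720 CPM (a count divided by the total of its library, on a fixed scale) in the untreated libraries. The curcumol libraries held a count for 17078 to 18501 genes and the untreated libraries for 12243 and 12915. The gene of the sorted CD64, Fcgr1, stood at 335, 321 and 267 CPM with curcumol, against 318 and 350 CPM without. Levels below and folds of their means are CPM on library totals. The log2 fold changes are curcumol over untreated ± SE from edgeR's quasi-likelihood test, after edgeR's TMM scaling of the libraries. A fold of means and the log2 value beside it are thus on different scalings and need not match. In this test p was adjusted over 14508 tested genes, with a threshold of 0.05. In bulk RNA, more cells of a type and more RNA per cell cannot be told apart.

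Of the 8 roles the secondary granule genes had the highest median log2 fold change, 9.48, while primary granule genes were low or level in both. Camp and Ngp rose with curcumol, and they were the only members past the threshold: 2 of 31 tested members rose (6.45%) and none fell, where 0.0689% of all tested genes rose and 0.138% fell (0.207% in either direction). In 19 of the 32 members every curcumol library lay above every untreated library, and in 3 every one lay below. These shares were 61.3% and 9.68% of the tested members, against 36.6% and 9.31% of all tested genes. At an unadjusted p under 0.05 there were 17 members higher and 2 lower, and these shares were 18.1% and 6.51% of all tested genes. The member not tested, Ctsg, was too low for the filter. Camp, Ngp, Ly6g and Itgb2l, and so both called members, passed it through the curcumol libraries alone, as did 1939 of all 14508 tested genes (13.4%). Such a gene had to differ between the groups to be tested at all, so the 2 calls describe these genes and are no support for the list. The median log2 fold change over the 31 tested members was 1.36, and over all tested genes 0.15. The count of members called rested on single libraries: it was 1, 0 and 1 without curcumol replicate 1, 2 or 3. After removal of replicate 2, 17 of 31 members had an unadjusted edgeR p under 0.05, as did 2383 of all 13934 genes tested in that fit. The median log2 fold change of the members was 1.57 without untreated replicate 1 and 1.35 without untreated replicate 2. With 1 untreated sample left, the spread comes from the curcumol libraries alone and the lone sample is assumed to vary like them. DESeq2 called 15 members higher and 1 lower, against 11.8% and 4.74% of all tested genes. With limma-voom 9 were called higher and none lower, against 9.72% and 1.73% of all tested genes.

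**Figure D1:**
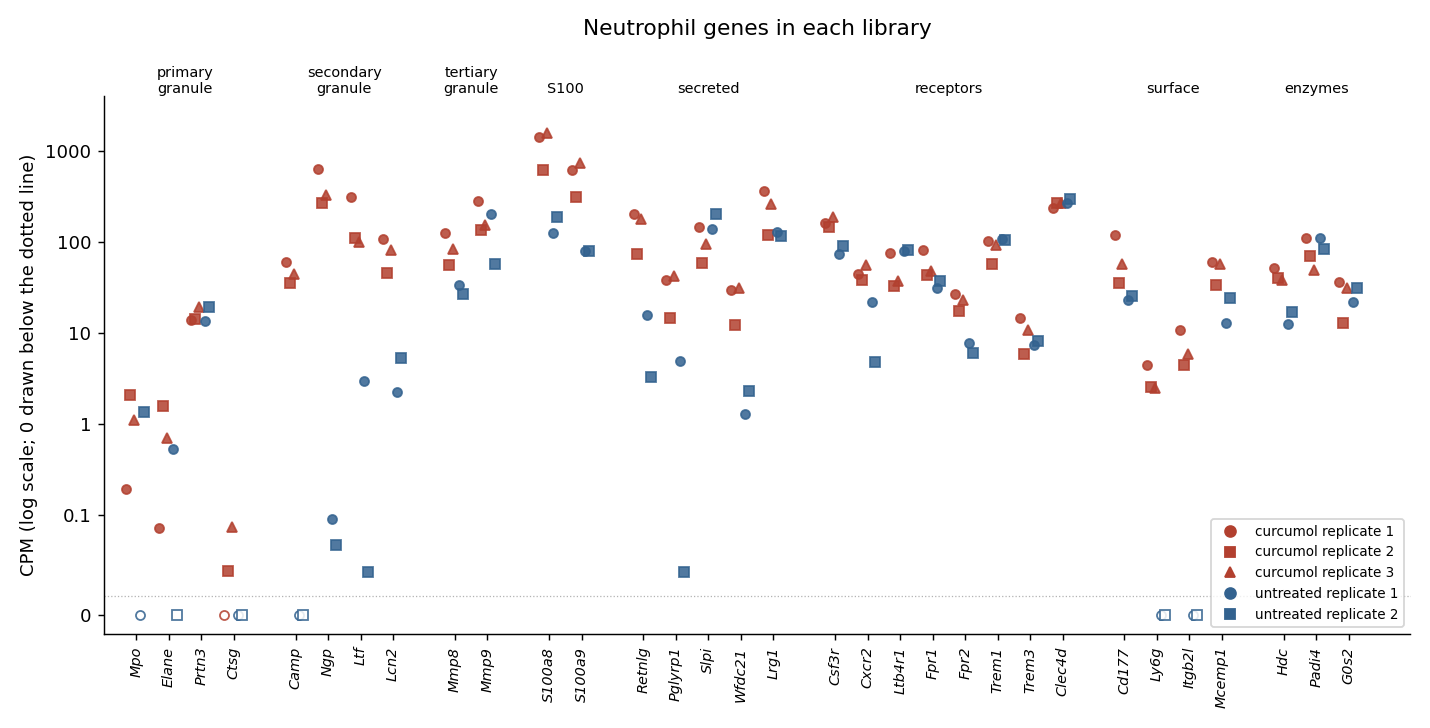
CPM of the 32 neutrophil genes in each library on a log axis, grouped by role, with curcumol libraries in red and untreated libraries in blue and open symbols at the bottom for a count of 0. The 4 secondary granule genes lie between 35.5 and 641 CPM in the curcumol libraries and between 0 and 5.33 CPM in the untreated libraries, whereas Prtn3, Clec4d and G0s2 lie at like heights in both.

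Camp encodes the precursor of the antimicrobial peptide cathelicidin (NCBI gene 12796). It stood at 61.6, 35.5 and 45.1 CPM in the curcumol libraries (2528, 1459 and 1792 counts) and at 0 in both untreated libraries. All 3 curcumol libraries were thus far above the floor, and the mean of 47.4 ± 13.2 CPM (SD, n = 3) was at least 671-fold higher than the floor of 3 counts per library (log2 fold change 13.87 ± 0.80, edgeR adjusted p = 0.0156). The fitted value depends on the small count added to zeros and is no bound. Of the 3070 genes with a curcumol mean of 30 to 100 CPM, Camp was the only one without a count in either untreated library, and it had the highest curcumol mean of the 6393 genes detected with curcumol alone. Its adjusted p was 0.0954, 0.104 and 0.0766 without curcumol replicate 1, 2 or 3, and lay between 7.55e-16 and 0.104 in the alternatives.

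Ngp, the neutrophilic granule protein, is a relative of cathelicidin (NCBI gene 18054). It stood at 641, 273 and 333 CPM in the curcumol libraries, against 0.0923 and 0.0480 CPM in the untreated libraries, where the counts were 4 and 2. The groups lie apart by more than 3 orders of magnitude, with curcumol replicate 1 the highest. Over pooled counts the ratio was 5899.5, with an exact 95% interval of 2710.3 to 16076.5 that covers counting error alone (log2 fold change 12.29 ± 0.76, edgeR adjusted p = 0.0147). Among the 1716 genes with a curcumol mean of at least 100 CPM, Ngp had the lowest untreated level relative to its curcumol level and Ltf the second lowest. The Ngp call was lost without curcumol replicate 2 (adjusted p = 0.0906), and in the alternatives it lay between 1.34e-61 and 0.0906.

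Ltf, the iron-binding protein lactoferrin (NCBI gene 17002), stood at 316, 112 and 100.2 CPM in the curcumol libraries, against 3.02 and 0.0240 CPM in the untreated libraries. The untreated libraries differed from each other by 131 counts to 1, and every curcumol library was above both. The difference of 6.66 ± 1.45 on the log2 scale did not pass (edgeR adjusted p = 0.0665). Lcn2, the siderophore-binding lipocalin 2 (NCBI gene 16819), stood at 110, 46.4 and 81.8 CPM with curcumol, against 2.29 and 5.33 CPM without. Its mean was 20.8-fold higher with curcumol (4.21 ± 0.57 on the log2 scale) and it narrowly missed the threshold (edgeR adjusted p = 0.0555). The summed level of the 4 secondary granule genes was 1128, 468 and 560 CPM in the curcumol libraries, against 5.40 CPM in each untreated library. The median log2 fold change of the 4 was 9.48, or 8.02 with Camp at its lower bound. In CPM, Ngp was 10.4, 7.71 and 7.38 times Camp in the curcumol libraries, and Ltf was 0.493, 0.410 and 0.301 times Ngp, so each proportion varied less than 2-fold. In untreated replicate 1, by contrast, Ltf was 32.8 times Ngp, at 131 counts to 4, and in untreated replicate 2 it had 1 count to 2.

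The secondary granule genes are classic targets of C/EBP transcription factors, so their promoter windows are shown (RefSeq, GRCm38.p6, 5′ to 3′ on the strand of the gene, 250 bases before to 50 after the start). Capitals mark every match to the C/EBP motif TTGCNNAA on either strand.

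Camp, - strand, chr9:109849407-109849706: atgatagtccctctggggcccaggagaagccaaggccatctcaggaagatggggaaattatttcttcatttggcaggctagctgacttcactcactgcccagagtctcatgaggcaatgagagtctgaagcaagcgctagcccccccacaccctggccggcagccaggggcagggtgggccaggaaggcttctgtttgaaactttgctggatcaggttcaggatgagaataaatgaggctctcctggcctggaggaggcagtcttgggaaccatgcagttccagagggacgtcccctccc
Ngp, + strand, chr9:110419558-110419857: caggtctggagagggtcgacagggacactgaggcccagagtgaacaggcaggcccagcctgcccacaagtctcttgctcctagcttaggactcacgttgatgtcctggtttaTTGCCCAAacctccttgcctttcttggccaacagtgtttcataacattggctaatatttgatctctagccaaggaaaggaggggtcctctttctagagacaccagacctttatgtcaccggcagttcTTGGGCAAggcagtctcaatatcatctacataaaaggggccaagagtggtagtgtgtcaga
Ltf, + strand, chr9:111019042-111019341: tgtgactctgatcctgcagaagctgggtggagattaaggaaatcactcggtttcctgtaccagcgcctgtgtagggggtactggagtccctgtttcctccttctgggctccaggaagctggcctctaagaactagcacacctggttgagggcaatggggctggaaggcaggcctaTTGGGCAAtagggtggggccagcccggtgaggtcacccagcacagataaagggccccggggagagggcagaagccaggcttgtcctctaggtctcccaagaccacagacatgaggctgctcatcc
Lcn2, - strand, chr2:32387690-32387989: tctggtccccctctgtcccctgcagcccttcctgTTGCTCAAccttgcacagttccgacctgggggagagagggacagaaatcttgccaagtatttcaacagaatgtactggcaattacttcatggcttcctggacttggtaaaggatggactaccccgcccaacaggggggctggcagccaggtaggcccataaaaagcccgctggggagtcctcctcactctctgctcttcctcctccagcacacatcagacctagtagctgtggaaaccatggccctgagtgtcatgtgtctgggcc

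The motif was found in 3 of these 4 windows. Ngp held matches that begin 138 and 11 bases before the start, Ltf 1 at 75 bases and Lcn2 1 at 216 bases, and the letters were not found in the Camp window. Of the 29 members with a window in the RefSeq table, 8 held the motif (27.6%), against 12.2% of the 27025 genes with a window. Besides the 3 secondary granule genes these were Mmp8, S100a9, Slpi, Retnlg and Ly6g. None of the 4 primary granule windows and none of the 7 receptor windows held it. The PU.1 core GAGGAA, searched on both strands, was found in 18 of the 29 members (62.1%) and in 31.3% of all genes with a window. It was in all 4 primary granule windows, in 6 of the 7 receptor windows and in the Ltf and Lcn2 windows, and no base belonged to both motifs in the 4 windows printed. These are matches of letters, not measured binding.

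The primary granule genes did not share this pattern. Mpo, myeloperoxidase (NCBI gene 17523), stood at 0.195, 2.09 and 1.11 CPM with curcumol, against 0 and 1.37 CPM without. Elane, neutrophil elastase (NCBI gene 50701), stood at 0.0730, 1.58 and 0.704 CPM with curcumol, against 0.531 and 0 CPM without. The groups overlapped for both genes, and the curcumol library with the lowest level of each was replicate 1, the library in which all 4 secondary granule genes and the neutrophil surface marker Ly6g were highest. Ctsg, cathepsin G, had 0, 1 and 3 counts with curcumol and none without, which is at or under the floor in both groups. Prtn3, proteinase 3 (NCBI gene 19152), was the exception in level, at 14.0, 14.3 and 19.4 CPM with curcumol, against 13.9 and 19.3 CPM without. Its groups span the same range (log2 fold change -0.25 ± 0.32, edgeR adjusted p = 0.714), although it is the direct neighbour of Elane on chromosome 10 with no protein-coding gene between them. Mpo and Elane differed by 0.54 ± 1.88 and 1.33 ± 1.92 on the log2 scale (edgeR adjusted p = 0.907 and 0.747). With errors this wide, changes of several fold either way would not have been detectable.

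The tertiary granule proteases were present in both groups. Mmp8, neutrophil collagenase (NCBI gene 17394), stood at 126, 56.4 and 83.9 CPM in the curcumol libraries, against 34.2 and 26.9 CPM in the untreated libraries. Its mean was 2.90-fold higher with curcumol, without overlap between the groups (1.36 ± 0.38 on the log2 scale, edgeR adjusted p = 0.0861). Mmp9, gelatinase B, stood at 285, 136 and 154 CPM with curcumol, against 204 and 57.3 CPM without. Here the untreated libraries differed 3.57-fold from each other and the groups overlapped (0.36 ± 0.59, edgeR adjusted p = 0.778), and the sign turned without curcumol replicate 1 (-0.07) or untreated replicate 2 (-0.27). In CPM per kilobase of transcript (RPKM), the untreated means were 12.6 for Mmp8 and 41.2 for Mmp9, against 0 for Camp, 0.0574 for Ngp and 0.556 for Ltf.

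S100a8 and S100a9, the subunits of the calcium- and zinc-binding protein calprotectin, were the most abundant members with curcumol. S100a8 (NCBI gene 20201) stood at 1421, 626 and 1569 CPM in the curcumol libraries, against 128 and 189 CPM in the untreated libraries. S100a9 (NCBI gene 20202) stood at 622, 317 and 740 CPM with curcumol, against 80.6 and 80.1 CPM without. Every curcumol library exceeded every untreated library, by 7.61-fold and 6.96-fold in the means, and neither gene passed (2.75 ± 0.46 and 2.61 ± 0.39 on the log2 scale, edgeR adjusted p = 0.0637 and 0.0597). The ratio of S100a8 to S100a9 was 2.28, 1.97 and 2.12 in the curcumol libraries and 1.58 and 2.36 in the untreated libraries. The genes are direct neighbours on chromosome 3. Both were well above the floor without curcumol, unlike Camp and Ngp.

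Of the 5 other secreted products, Retnlg, Wfdc21 and Pglyrp1 were higher in every curcumol library, as were 36.6% of all tested genes. None of the 5 passed the threshold. Retnlg, resistin-like gamma (NCBI gene 245195), stood at 206, 73.6 and 180 CPM with curcumol, against 15.9 and 3.29 CPM without (3.80 ± 0.83 on the log2 scale, edgeR adjusted p = 0.0665). Wfdc21, a small protein with a whey acidic protein domain, stood at 30.0, 12.4 and 31.3 CPM with curcumol, against 1.29 and 2.35 CPM without (3.57 ± 0.60, edgeR adjusted p = 0.0640). Pglyrp1, a bactericidal peptidoglycan recognition protein, stood at 38.2, 14.7 and 42.3 CPM with curcumol, against 4.92 and 0.0240 CPM without. Its untreated libraries had 213 counts and 1, and the difference was 3.48 ± 1.51 (edgeR adjusted p = 0.220). Lrg1, a leucine-rich glycoprotein of inflammation, stood at 369, 119 and 264 CPM with curcumol and at 131 and 117 CPM without, with curcumol replicate 2 inside the untreated range. Slpi, an inhibitor of elastase and cathepsin G, leaned the other way, at 147, 58.6 and 95.3 CPM with curcumol, against 141 and 206 CPM without (-0.97 ± 0.40, edgeR adjusted p = 0.198). Its groups overlapped through curcumol replicate 1.

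Of the 8 receptors 4 were higher and 3 lower in every curcumol library (36.6% and 9.31% of all tested genes were), and none passed. Csf3r, the receptor of granulocyte colony-stimulating factor (NCBI gene 12986), stood at 162, 147 and 188 CPM in the curcumol libraries, against 75.3 and 91.2 CPM in the untreated libraries. That was a 1.99-fold difference in the means with little spread inside either group (0.81 ± 0.18 on the log2 scale, edgeR adjusted p = 0.0683). Fpr2, a formyl peptide receptor, stood at 26.9, 17.7 and 23.3 CPM with curcumol, against 7.85 and 6.10 CPM without (1.51 ± 0.36, edgeR adjusted p = 0.0729). Cxcr2, the receptor of the chemokines Cxcl1 and Cxcl2, stood at 44.5, 38.4 and 56.9 CPM with curcumol, against 22.0 and 4.82 CPM without. The 4.55-fold gap between the untreated libraries is wider than that between any 2 curcumol libraries, and the difference of 1.60 ± 0.63 did not pass (edgeR adjusted p = 0.182). Fpr1, the neighbour of Fpr2 on chromosome 17, stood at 83.1, 44.3 and 48.2 CPM with curcumol and at 31.2 and 38.0 CPM without. These 4 receptors were higher in every curcumol library.

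Ltb4r1, Trem1 and Clec4d, by contrast, were lower in every curcumol library, and none of the 3 passed. Ltb4r1, the high-affinity receptor of leukotriene B4, stood at 75.7, 33.0 and 37.3 CPM with curcumol, against 79.4 and 81.9 CPM without (-0.90 ± 0.39, edgeR adjusted p = 0.217). Trem1, an amplifier of inflammatory signals on myeloid cells, stood at 103, 58.3 and 93.9 CPM with curcumol, against 110 and 106 CPM without. Clec4d, a C-type lectin of myeloid cells that binds mycobacterial glycolipid, stood at 236, 269 and 267 CPM with curcumol, against 272 and 303 CPM without. Its highest curcumol and lowest untreated libraries nearly touch, and DESeq2 called it lower (adjusted p = 0.0414) where edgeR did not (adjusted p = 0.200). Trem3, next to Trem1, stood at 14.9, 5.96 and 10.9 CPM with curcumol and at 7.41 and 8.18 CPM without, and its sign turned without curcumol replicate 1 (-0.094).

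All 4 surface members were higher in every curcumol library, as were 36.6% of all tested genes, and none of the 4 passed. Ly6g, the glycosylphosphatidylinositol-anchored protein by which mouse neutrophils are recognised (NCBI gene 546644), stood at 4.48, 2.58 and 2.54 CPM with curcumol (184, 106 and 101 counts) and at 0 without. That is at least 45.3-fold above the floor (edgeR adjusted p = 0.0644). Itgb2l, a beta integrin resembling Itgb2 (NCBI gene 16415), stood at 10.8, 4.50 and 5.88 CPM with curcumol and at 0 without, at least 100.1-fold above the floor (edgeR adjusted p = 0.0597). A lack of untreated counts at such levels is less rare than at the level of Camp: it held for 128 of the 2337 genes with a curcumol mean of 3 to 10 CPM (5.48%). Cd177, a neutrophil surface glycoprotein, stood at 119, 35.7 and 57.4 CPM with curcumol, against 23.0 and 25.7 CPM without (1.37 ± 0.52, edgeR adjusted p = 0.171). Mcemp1, a membrane protein of mast cells and myeloid cells, stood at 61.1, 34.2 and 57.6 CPM with curcumol, against 13.1 and 24.5 CPM without (1.26 ± 0.39, edgeR adjusted p = 0.105).

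Of the 3 remaining members, Hdc, the histamine-forming histidine decarboxylase, was higher in every curcumol library, at 52.8, 41.1 and 38.5 CPM with curcumol, against 12.6 and 17.2 CPM without (1.39 ± 0.28 on the log2 scale, edgeR adjusted p = 0.0659). Padi4, the deiminase that citrullinates histones in extracellular trap formation, stood at 113, 71.1 and 50.2 CPM with curcumol and at 111 and 85.1 CPM without. G0s2, an inhibitor of triglyceride lipase, stood at 36.7, 12.9 and 31.2 CPM with curcumol and at 22.4 and 31.8 CPM without. Both genes overlapped between the groups, with differences of -0.51 ± 0.36 and -0.18 ± 0.47 (edgeR adjusted p = 0.461 and 0.869).

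**Figure D2:**
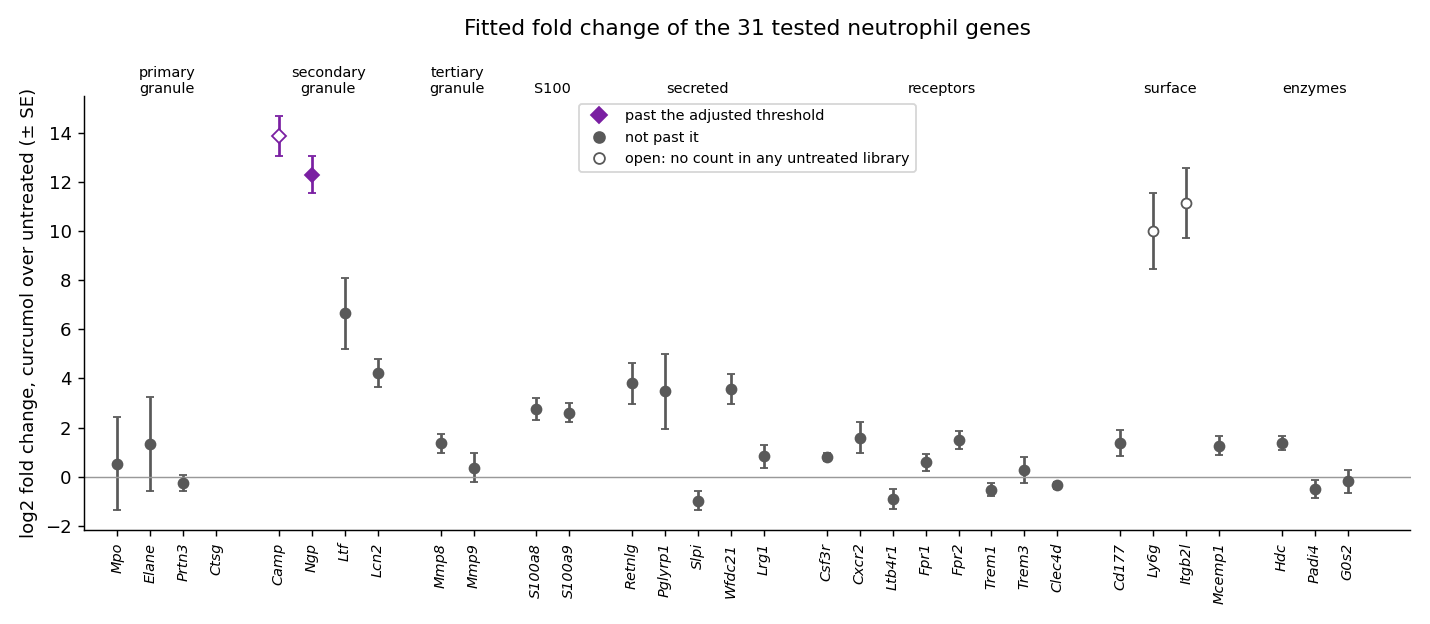
Fitted log2 fold change of curcumol over untreated, with SE bars, for the 31 tested neutrophil genes by role, where diamonds mark genes past the adjusted threshold and open symbols genes without a count in any untreated library. Camp (13.87) and Ngp (12.29) are past the threshold, the receptors lie between -0.90 and 1.60, and Ctsg was not tested.

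The neutrophil genes also varied among the curcumol libraries. Replicate 1 was the highest of the 3 for 21 of 31 tested members and replicate 2 the lowest for 23, and both held for 17 (54.8%, against 12.4% of all 14508 tested genes). The ratio of replicate 1 to replicate 2 was 2.81 for Ltf, 2.34 for Ngp, 3.34 for Cd177 and 3.09 for Lrg1. The S100 genes, Wfdc21, Pglyrp1, Csf3r, Cxcr2 and Prtn3 differed in that replicate 3 stood highest. Csf3r and Clec4d were the steadiest, with the highest library 1.27 and 1.14 times the lowest. The summed level of the 32 members was 5531, 2716 and 4708 CPM in the curcumol libraries, against 1547 and 1532 CPM in the untreated libraries, which were thus alike in sum though not gene by gene: Ltf, Pglyrp1, Retnlg, Cxcr2 and Mmp9 were higher in untreated replicate 1, and Lcn2, Wfdc21, Mcemp1 and Slpi in replicate 2.

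**Figure D3:**
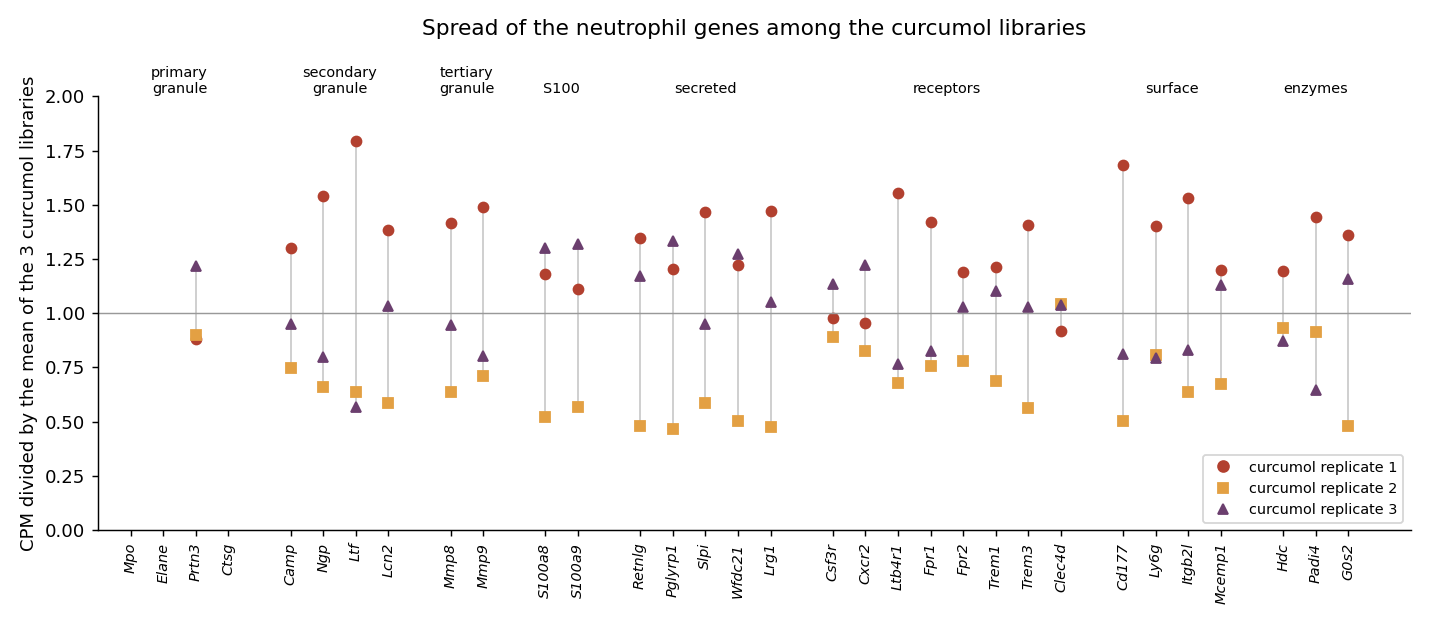
CPM of each neutrophil gene in the 3 curcumol libraries divided by the mean of those libraries, by role, for members with a mean of at least 2 CPM. Circles (replicate 1) lie above squares (replicate 2) in most columns, as for Ltf and Cd177, while triangles (replicate 3) are highest for S100a8 and S100a9.

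Per length of transcript the order of the members differed between the groups. With curcumol S100a8 led at a mean of 2480.4 RPKM, followed by S100a9 at 1078 RPKM, Ngp at 340.2 RPKM and Retnlg at 258 RPKM. S100a8 lay above S100a9 within each curcumol library, although their ranges over the libraries overlapped. S100a9 lay above Ngp in all 3 without overlap. Ngp lay above Retnlg in replicates 1 and 2 and below it in replicate 3. Without curcumol S100a8 led at 326 RPKM, followed by Clec4d at 217 RPKM, Slpi at 198 RPKM and S100a9 at 155 RPKM, of which Clec4d and Slpi overlapped. Ngp thus had rank 3 with curcumol and rank 28 without, above only the members with no untreated count.

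Genes that act around these members were read from lists of related genes. Of the 5 lists 1 gene passed, Cxcl1, a neutrophil-attracting ligand of Cxcr2, which fell to 27.2, 27.2 and 48.2 CPM with curcumol, against 243 and 440 CPM without (-3.51 ± 0.35, edgeR adjusted p = 0.0431). This call was lost without curcumol replicate 1, 2 or 3, when no related gene passed. Cxcl2, the other main ligand, stood at 506, 369 and 839 CPM with curcumol, against 2846 and 2892 CPM without (edgeR adjusted p = 0.0523). The receptor Cxcr2 was thus higher in each curcumol library and its ligands Cxcl1 and Cxcl2 lower. Csf3, the ligand of Csf3r, had 0, 8 and 0 counts with curcumol and 75 and 4 without, too few to test. The list also holds genes that are no ligand of a member, among them Il1b and Lta4h, an enzyme of leukotriene B4 synthesis. Of its 9 tested genes 7 had a negative log2 fold change, with a median of -0.66.

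Of 11 granulopoiesis genes, which act while neutrophils form, none passed and the median log2 fold change was 0.11. Cebpe, the factor of secondary granule formation, stood at 4.89, 1.80 and 3.998 CPM with curcumol and at 0 and 2.38 CPM without. Gfi1, a repressor needed for neutrophil development, stood at 0.633, 0.8999 and 0.478 CPM with curcumol and at 0 and 2.47 CPM without. Ms4a3, a marker of granulocyte and monocyte progenitors, had 34, 13 and 1 counts with curcumol and none without. All 3 genes had no count in untreated replicate 1, and Ms4a3 had a single count in curcumol replicate 3. Cebpb, a factor of activated myeloid cells, stood at 827, 614 and 794 CPM with curcumol, against 1040.5 and 1165 CPM without (edgeR adjusted p = 0.0768).

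All 4 stefin genes in the table, cysteine protease inhibitors abundant in neutrophils, were higher in every curcumol library, as were 36.6% of all tested genes. None of the 4 passed (edgeR adjusted p from 0.0683 to 0.143). Stfa2 stood at 8.62, 0.681 and 9.68 CPM with curcumol and at 0 without (edgeR adjusted p = 0.0683), and Stfa2l1 at 11.7, 3.38 and 13.9 CPM with curcumol, against 1.09 and 0.816 CPM without (edgeR adjusted p = 0.0806). Reads may be shared among near-identical stefin copies. Summed, they stood at 28.9, 5.57 and 34.3 CPM with curcumol, against 1.36 and 0.816 CPM without, and curcumol replicate 2 was again the lowest. Of 21 further genes of mature neutrophils none passed, and the median was 0.16. Without overlap 8 of them were higher and 1 lower, where 36.6% and 9.31% of all tested genes were. Cxcr1, a chemokine receptor and relative of Cxcr2, stood at 0.901, 1.02 and 0.603 CPM with curcumol and at 0 without (at least 11.9-fold above the floor, edgeR adjusted p = 0.0673). Prok2, a chemokine-like prokineticin, had the next smallest p, at 3.46, 1.34 and 1.23 CPM with curcumol, against 0 and 0.0240 CPM without. The 5 genes of the NADPH oxidase, which macrophages share, had a median of -0.20 and none passed. Cybb, its catalytic subunit, stood at 658, 978 and 582 CPM with curcumol and at 503 and 385 CPM without, and Ncf4 at 320.4, 231 and 303 CPM with curcumol and at 362 CPM in each untreated library.

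Markers of other cells were measured beside these genes. The 12 macrophage genes summed to 44102.5 to 48507 CPM with curcumol and to 42351 and 43107 CPM without, and all were detected in all 5 libraries. Of the 12 genes 7 were higher and 1 lower in every curcumol library (36.6% and 9.31% of all tested genes were), and none passed. Lyz2, lysozyme, and C1qb, a complement subunit, were the highest of them, at 23265 ± 1313 and 7175 ± 273 CPM with curcumol, against 23608 ± 1185 and 5585 ± 59.0 CPM without (SD, n = 3 and 2). Monocyte genes summed to 1545 to 2708 CPM with curcumol and to 1727 and 1537 CPM without, with F13a1, a coagulation factor subunit, and Ccr2, a chemokine receptor, the highest. F13a1 alone stood at 1706, 1476 and 895 CPM with curcumol, against 579 and 465 CPM without. Of the 8 monocyte genes 6 had a negative log2 fold change, with a median over the 8 of -0.21, and none passed. Eosinophil genes summed to 9.13 to 17.9 CPM with curcumol and to 16.2 and 6.82 CPM without. Siglecf and Ccr3 made up most of this sum, while Prg2, Ear1 and Il5ra had no untreated count.

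Several lists of cells outside the macrophage lineage were higher with curcumol, as the secondary granule genes were. The 7 fibroblast genes summed to 133, 167 and 352 CPM with curcumol, against 33.6 and 27.2 CPM without. Dcn, decorin, and Lum, lumican, both small proteoglycans of the matrix, rose (edgeR adjusted p = 0.0464 for each), as did 0.0689% of all tested genes. These 2 calls were lost without curcumol replicate 1 or 2. Lum and Pdgfra had no untreated count and passed the filter through the curcumol libraries alone. The 6 endothelial genes summed to 22.3 to 35.4 CPM with curcumol, against 4.25 and 4.78 CPM without, with Pecam1 and Kdr the highest and Cdh5 and Tie1 at 0 in both untreated libraries. The 7 cardiomyocyte genes summed to 73.4 to 100.1 CPM with curcumol, against 17.6 and 45.9 CPM without, with Tnnt2 and Actc1 the highest. The 6 basophil and mast cell genes in the table summed to 2.19 to 15.0 CPM with curcumol, against 0.139 and 0 CPM without, with Kit and Cma1 the highest and 5 of the 6 at 0 in both untreated libraries. Cma1 and Tpsb2 rested mostly on curcumol replicate 1, at 221, 1 and 2 counts and 171, 10 and 6 counts in the 3 curcumol libraries. Kit and Gata2 were above the floor in all 3, at 63, 184 and 42 counts and 61, 49 and 37 counts.

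T and NK cell genes, led by Nkg7 and Cd3g, summed to 44.9 to 94.5 CPM with curcumol, against 33.1 and 37.4 CPM without, and B cell genes, led by Cd79b and Cd79a, to 71.3 to 100.4 CPM with curcumol, against 49.9 and 34.3 CPM without. The erythroid and platelet list, led by Pf4 and Hba-a1, summed to 937 to 1196 CPM with curcumol and to 939 and 1018 CPM without. Pf4 made up most of this sum, at 1177, 923 and 1084 CPM with curcumol and 905 and 942 CPM without. The sum thus says little of the other genes of the list. Hba-a1 stood at 11.1, 6.76 and 12.5 CPM with curcumol, against 17.5 and 39.5 CPM without. In the list 3 globin genes were lower in every curcumol library (9.31% of all tested genes were), and 3 genes overlapped. The erythroid gene Alas2 went the other way, at 1.05, 0.195 and 0.453 CPM with curcumol and at 0 without. Apart from Dcn and Lum no marker passed. Summed, fibroblast genes were highest in curcumol replicate 3 (6 of the 7 genes, not Pdgfra) and secondary granule genes in replicate 1. The part of these cells, and of the larger number of genes detected in the curcumol libraries, in the neutrophil result was not tested.

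**Figure D4:**
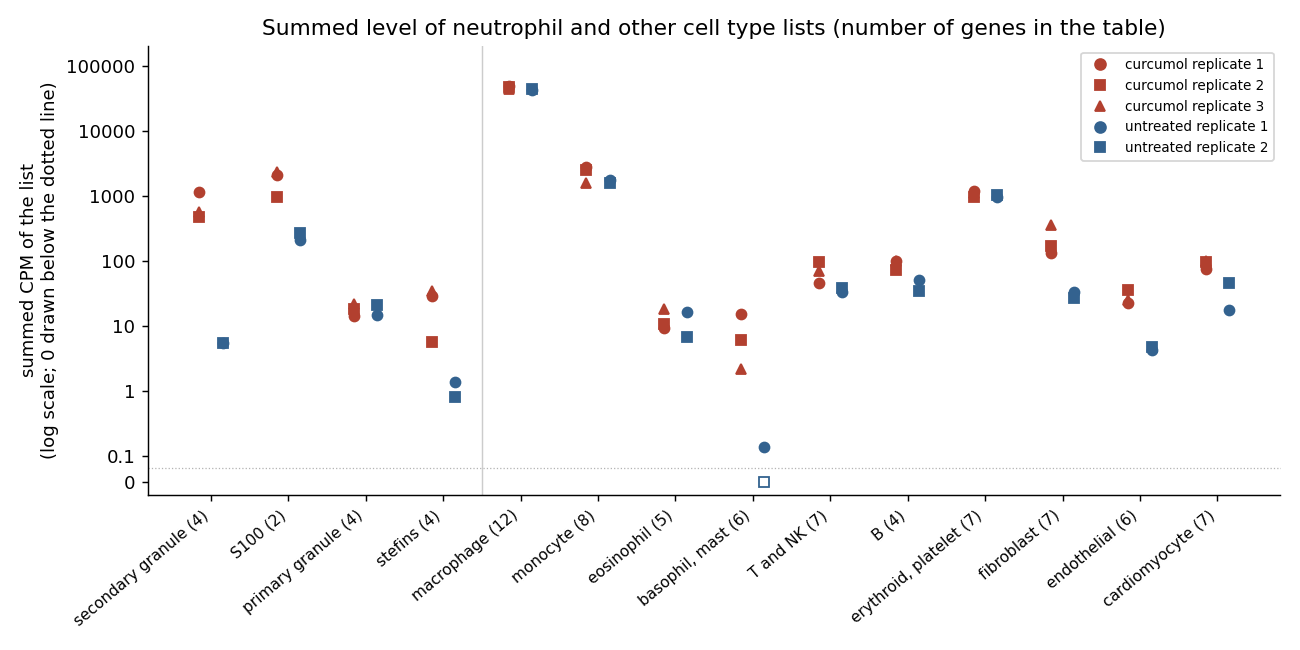
Summed CPM of the neutrophil lists (left of the line) and of marker lists of other cells in each library, on a log axis with an open symbol for a sum of 0 and the number of genes in brackets. Secondary granule genes are at 468 to 1128 CPM in the curcumol libraries (red) and 5.40 CPM in each untreated library (blue), while the macrophage sums of the groups lie close together.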

How the data were processed

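The data were gene-level counts from RNA sequencing of 3 curcumol and 2 untreated samples of sorted cardiac cells. The table the authors deposited holds raw counts, unnormalized whole numbers, in 1 column per sample matched by title. Per the submitters' processing notes the tools included fastp, HISAT2, HTSeq and Bowtie2. For their roles and versions, the genome build, the annotation and the strand setting: not given in the sources used here. Strandedness is unsettled, because the labels name a VAHTS kit and the design text names a TruSeq Stranded one. Nothing says that samples came from separate animals, so p-values measure the spread between these samples, which may be technical.

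Curcumol was compared with untreated in edgeR 4.0.16 (R 4.3.3): filterByExpr kept genes at a minimum count of 10, TMM scaled the libraries, and group was the single term of the quasi-likelihood model (3 residual degrees of freedom). Tests were two-sided, with Benjamini-Hochberg adjustment over all 14508 tested genes. Each SE is the log2 fold change over the root of F. No permutation test was run, since the smallest exact p with these sample numbers is 0.1. RPKM used the longest coding transcript of GENCODE M21, found for all 32 members. Intervals and floors cover counting error only, and PCR copies were not removed by molecular identifiers as far as the sources say. No library pair agreed within sampling noise (chi-square per gene 76.8 to 124 within groups).

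The members and gene lists were chosen with earlier results of these data known, so no count here is independent evidence. All 32 members are named. Of related lists, genes past the threshold or else the 2 with the smallest p were named, with Cebpe, Gfi1, Ms4a3 and Csf3. Of marker lists, genes past the threshold or else the 2 highest with curcumol were named, with Fcgr1. Further genes with no untreated count, Cxcl2, Il1b, Lta4h and the globin genes were named after their values were seen. Promoters are RefSeq windows of GRCm38.p6, found for 29 members. The alternatives were RLE factors, total counts, no filter, a CPM of at least 1 in 2 samples, DESeq2 1.42.0, limma-voom (limma 3.58.1), a replicate block and leaving out each sample.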

Additional observations from a re-analysis of the deposited data

How the results depend on the processing

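Of the 31 tested members 26 kept the sign of their log2 fold change in every alternative that tested them. For genes whose libraries do not overlap this sign is largely fixed. The sign of 5 members whose groups overlapped in the full set of samples turned when a sample was left out: Mpo (-0.24 without curcumol replicate 2, with a range of -0.46 to 8.48 over the leave-outs), Prtn3 (-0.44 to 0.012), Mmp9 (-0.27 to 1.59), Trem3 (-0.094 to 0.56) and G0s2 (-0.50 to 0.16). The 8.48 arises without untreated replicate 2, when no untreated Mpo count is left, and is no bound. The number of members higher in every curcumol library was 19 with TMM or RLE factors and 19 to 22 with a sample left out. This count and these alternatives were chosen after seeing the data, as were those for the related genes.

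The number of calls depended on the procedure, and the cause was not tested. The main fit called 30 of 14508 tested genes, 2 members higher, 0 members lower and 1 related gene. A CPM of at least 1 in 2 samples called 98 of 12212 tested genes, 4 members and 2 related genes. With no filter 416 of 20537 tested genes, 10 members and 5 related genes were called. DESeq2 called 2397 genes, 15 members higher, 1 lower (Clec4d) and 17 related genes, and limma-voom 1661, 9, 0 and 8. Scaling by total counts, under which the all-gene median is 0.34 and not 0.15 on the log2 scale, called 10 genes, the same 2 members and 0 related genes. There 18 of 31 members had an unadjusted edgeR p under 0.05, as did 3685 of all 14508 tested genes. Leaving out a sample gave 0 to 3531 genes, 0 to 16 members and 0 to 15 related genes. The median of the members stayed between 1.09 and 1.57. A floor of 1 count per library triples the lower bounds, to 2012 for Camp, 136 for Ly6g and 300.4 for Itgb2l.

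Whether the shared replicate numbers pair the samples could not be settled. Deviations from the group means correlated by 0.04 between the replicates 1 and by -0.00396 between the replicates 2. The deviations of the 2 untreated samples mirror each other, so these values can neither show nor exclude a pairing. A replicate block gave 45 genes, 3 members (Camp, Ngp and Retnlg) and 2 related genes. With 3 residual degrees of freedom, members whose libraries vary as widely as those of Mpo and Elane cannot be resolved.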
